A study of Mus musculus with 11 samples.

Results

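Smooth muscle, pericytes and myofibroblasts share a set of proteins that form and regulate the contractile apparatus, and 10 genes of this set were followed here across the stroma, the failed-repair tubular cells and the endothelium of injured mouse kidney. The 10 genes are *Acta2*, *Tagln*, *Myh11*, *Cnn1*, *Des*, *Myl9*, *Tpm1*, *Tpm2*, *Lmod1* and *Actg2*; they were taken by symbol from the 28692 genes of the count tables, and all 10 were present. The tables hold single-cell counts from whole kidneys of adult male C57Bl/6 mice: 5 control libraries (labelled Ctrl, N1, N2, AN1 and AN2) from uninjured animals, 3 libraries after unilateral ischemia-reperfusion (UIR, clamping of the left renal pedicle) and 3 after unilateral ureteral obstruction (UUO, permanent ligation of the left ureter), the injured kidneys having been taken weeks after surgery. In the UIR and UUO groups 1 library each carries no number in its title and is called the unnumbered library; no label gives a batch for any library, and injury and batch cannot be told apart. No allele or transgene is named for any group.

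In a contractile cell, actin thin filaments slide along myosin thick filaments when the light chain of myosin is phosphorylated. *Acta2* and *Actg2* encode the vascular and enteric smooth muscle actins, *Tpm1* and *Tpm2* the tropomyosins that lie along actin, *Lmod1* a leiomodin that nucleates actin filaments, *Tagln* and *Cnn1* the actin-binding proteins transgelin and calponin, *Myh11* the smooth muscle myosin heavy chain, *Myl9* its regulatory light chain, and *Des* the intermediate filament protein desmin. Fibroblasts that turn on *Acta2* while depositing matrix are called myofibroblasts, and *Acta2* is the marker by which they are usually recognised in fibrotic kidney.

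Transcription of these genes is known to be driven by serum response factor, which binds the CArG box, spelled CC, 6 bases of A or T, then GG. *Acta2* and *Myl9* were the 2 genes with a box in the window before their start, and these boxes are shown as a description of the sequence. The sequences are 30-base stretches from RefSeq (build GRCm38.p6), 5′ to 3′ on the gene's strand, with the 10 bases of the box in capitals:
Acta2 upstream box: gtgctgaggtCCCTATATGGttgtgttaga
Acta2 downstream box: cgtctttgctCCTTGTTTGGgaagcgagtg
Myl9 upstream box: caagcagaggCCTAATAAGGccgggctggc
Myl9 downstream box: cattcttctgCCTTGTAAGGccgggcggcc
The *Acta2* stretches lie at chr19:34255438-34255467 and chr19:34255388-34255417 on the minus strand, with the first base of the box 84 and 34 bases before the RefSeq start; both overlap an exon of another *Acta2* transcript in GENCODE. Those of *Myl9* lie at chr2:156775293-156775322 and chr2:156775355-156775384 on the plus strand, 161 and 99 bases before the start and outside any annotated exon. The upstream *Myl9* box was a full box, whereas the other 3 each had 1 of the 6 inner bases changed to C or G. Windows were at hand for 7 of the 10 genes, and the 250 bases before the start of *Cnn1*, *Des*, *Lmod1*, *Tpm1* and *Tpm2* held neither form on either strand. Of 32851 such windows over all genes, 1.47% held a full box, 8.59% a full box or one with 1 inner base changed, and 0.670% 2 or more of either form. A match is a stretch of letters and not a measured binding site.

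In the annotation of the files' build (mm10, GRCm38), *Acta2* (ENSMUSG00000035783) spans chr19:34241090-34255590, *Tagln* (ENSMUSG00000032085) chr9:45929619-45936058, *Myh11* (ENSMUSG00000018830) chr16:14194535-14291372, *Myl9* (ENSMUSG00000067818) chr2:156775420-156781658 and *Des* (ENSMUSG00000026208) chr1:75360329-75368579. *Cnn1* (ENSMUSG00000001349) spans chr9:22099216-22109630, *Tpm1* (ENSMUSG00000032366) chr9:67022590-67049406, *Tpm2* (ENSMUSG00000028464) chr4:43514711-43523765, *Lmod1* (ENSMUSG00000048096) chr1:135324807-135368065 and *Actg2* (ENSMUSG00000059430) chr6:83512905-83536265. The actins of the mouse are close relatives, and reads of *Acta2* and *Actg2* that fall in near-identical coding sequence are uncertain between them.

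Filtering left 40503 cells. Control libraries contributed 1859 to 2508 cells each, while the UIR libraries gave 3995 to 7441 and the UUO libraries 3787 to 5264. The median number of UMIs (molecules counted once each) per cell was 2517.5 to 4982 in control, 2573 to 3837 in UIR and 3158 to 4027 in UUO libraries. Cells were clustered without the 10 genes, without the naming markers and without the pathway genes described below, and clusters were named by markers that include none of the 10. Fibro 1-like stroma (*Col1a1*, *Dcn*, *Lum*) had 9 control, 381 UIR and 510 UUO cells, Fibro 2-like stroma (*Notch3*, *Rgs5*, *Ren1*, *Map3k7cl*) had 53, 342 and 152, and Fibro 3-like stroma (*Itga8*, *Gata3*, *Pdgfrb*) had 111, 75 and 181. The failed-repair tubular epithelial cells (frTECs) numbered 95, 828 and 330, and the endothelium 718, 1612 and 2001. Of 7434 cells in these classes, 70 had a barcode that also occurred in another library. A library entered a test only with 20 or more cells of the class, its cells being summed to 1 pool. Control libraries had 1 to 4 cells each of Fibro 1-like stroma, so this class was compared between UUO and UIR only. The labels do not tie a library to an animal, but the methods name as many mice per group as there are libraries, so each library was taken as 1 animal. The control library Ctrl stood apart: its glomerular-like endothelial pool had 575 CPM (counts scaled to a common library total) of 12 mural and stromal markers, and each endothelial result was therefore also computed without it.

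Fibro 2-like stroma held most UMIs of *Acta2*, *Myh11*, *Cnn1* and *Lmod1* in every group. Before injury it made up 0.517% of the kept cells and held 95.7% of all *Acta2* UMIs, 98.0% of those of *Myh11*, 96.3% of those of *Cnn1* and 91.8% of those of *Lmod1*. It also held 86.8% of the *Tagln*, 84.8% of the *Tpm2* and 62.4% of the *Myl9* UMIs, but 15.4% of those of *Des* and 20.02% of those of *Tpm1*. In UIR it held 36.4% of the *Tagln* UMIs, less than the 44.6% of the failed-repair cells, and in UUO 60.3% of those of *Acta2*. Of the 15776 *Tagln* UMIs of the failed-repair cells in UIR, 728, 1157 and 3799 in the unnumbered, first and second libraries came from their sub-cluster 2. That sub-cluster, described below, had more stromal than epithelial markers, and without it the failed-repair cells held less *Tagln* than Fibro 2-like stroma. *Acta2* was at 11876, 8984 and 10696 CPM in the unnumbered, first and second UIR libraries and at 11157, 11766 and 10056 CPM in the UUO libraries in the same order. The values interleaved, with means of 10519 ± 1454 (SD, n = 3) and 10993 ± 866 (SD, n = 3). *Myh11* was at 4041, 3772 and 4427 CPM in UIR and at 3560.2, 3500.0 and 3530.0 CPM in UUO. All 3 UUO values of *Myh11* were below all 3 UIR values, but the difference did not pass the test (log2 fold change -0.25, SE 0.15, adjusted p = 0.718). Of the 9 genes tested, 0 rose and 0 fell between UUO and UIR by edgeR's quasi-likelihood test, 0 had an unadjusted p under 0.05 and DESeq2 also called 0, against 0.885% of all 6441 genes called. The median log2 fold change of the 9 genes was 0.03, beside -0.01 over all genes, and the farthest from 0 was that of *Des* at 0.28 (adjusted p = 0.757). *Actg2* was too low to be tested here, at 5 UMIs in UIR and 13 in UUO.

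No control library reached 20 cells of Fibro 2-like stroma, so control was compared after lowering the limit to 10 cells, which admitted Ctrl, N1 and AN2 with 14, 16 and 12 cells. *Myh11* was at 8207, 5152 and 6379 CPM in these pools, all above the UUO values of 3500.0 to 3560.2 CPM and above the UIR values of 3772 to 4427 CPM. *Myh11* fell in UUO by 0.96 on the log2 scale (SE 0.18, adjusted p = 0.00311) and was the only one of 9 genes called, where 1.9% of all genes were called and 0.831% were called lower. In UIR the log2 fold change of *Myh11* was -0.71 (SE 0.18, adjusted p = 0.130). There edgeR called 0 of the 9 genes, 2 had an unadjusted p under 0.05, DESeq2 called 1, and 0.0639% of all genes were called. *Acta2* was at 13458, 9969 and 9861 CPM in the 3 control pools, overlapping both injuries, with log2 fold changes of -0.10 in UIR and -0.08 in UUO. With the free RNA of empty droplets subtracted, *Myh11* in UUO had a log2 fold change of -0.89 (adjusted p = 0.112) and was not called. These control pools rest on few cells.

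Sub-clusters of Fibro 2-like stroma had unlike levels of calponin and desmin. Over all groups summed, sub-cluster 2 had 12341 CPM of *Acta2*, 512 of *Cnn1* and 181 of *Des*. Sub-cluster 3 had 8449.9 CPM of *Acta2*, 39.7 of *Cnn1* and 748 of *Des*. The shallower sub-cluster 7, with a median of 1180.5 UMIs per cell and 66 of its 108 cells from UIR1, had 4995, 132 and 183 CPM. Calponin is a marker of differentiated smooth muscle and desmin is shared by muscle and pericytes. These are clusters of the same cells, and their difference is given as a description with no test.

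**Figure D1:**
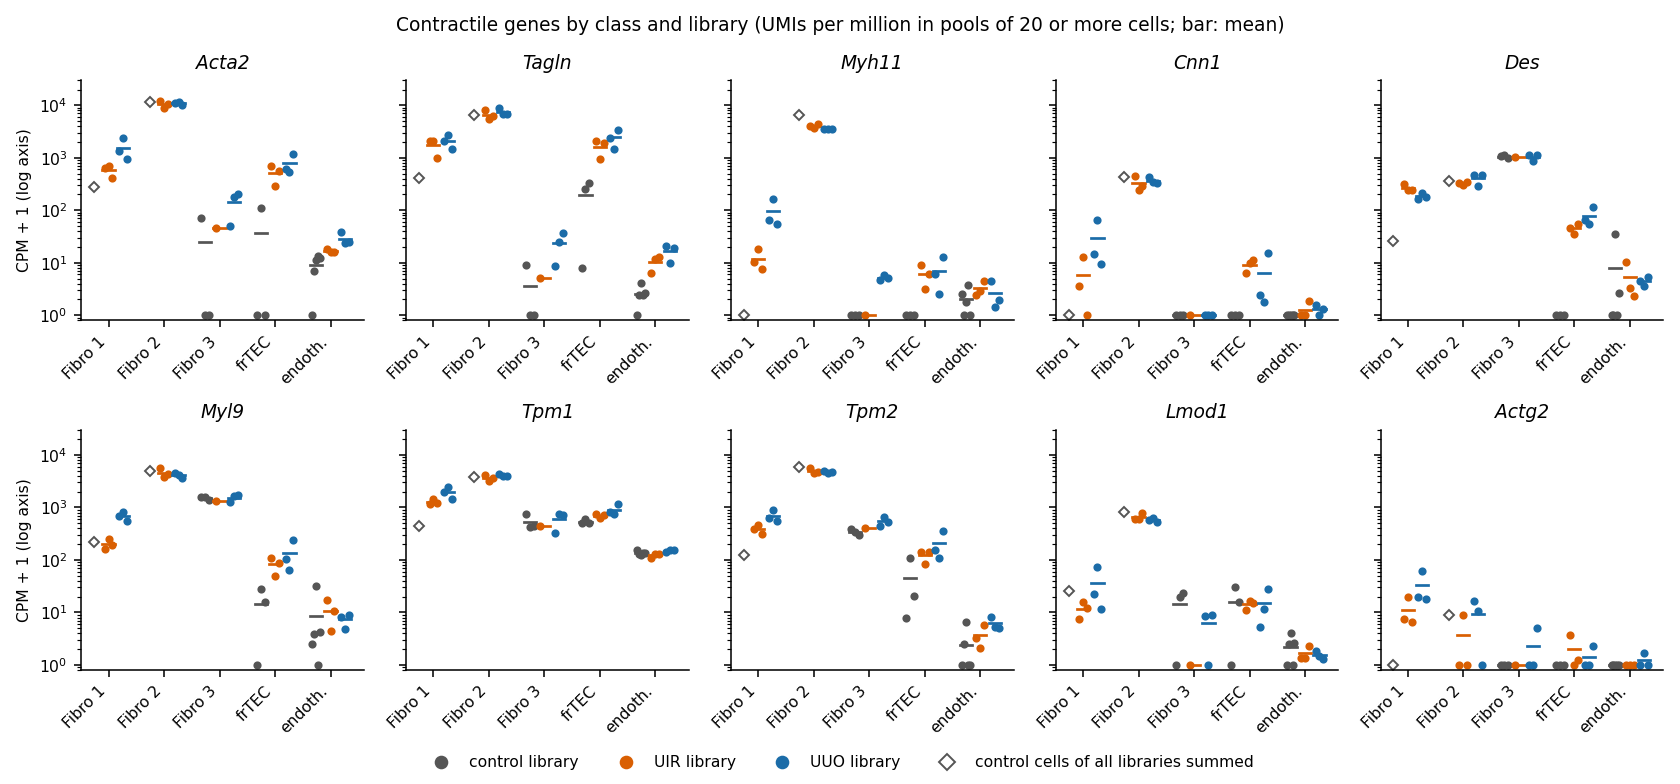
Levels of the 10 genes by class and group, 1 panel per gene, as CPM + 1 on a log axis. Each point is a library with 20 or more cells of the class, the bar is the mean, and an open diamond is all control cells of Fibro 1-like or Fibro 2-like stroma summed over libraries. *Acta2* was between 8984 and 11876 CPM in Fibro 2-like stroma of the injured kidneys and from 407 to 2382 CPM in Fibro 1-like stroma.

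In Fibro 1-like stroma, the matrix-producing fibroblasts, *Acta2*, *Myl9*, *Myh11* and *Tpm2* were higher after obstruction than after ischemia, and the other 6 genes did not pass the test. *Acta2* was at 628, 697 and 407 CPM in the unnumbered, first and second UIR libraries and at 1337, 2382 and 954 CPM in the UUO libraries in the same order. Every UUO library was above every UIR library, UUO1 being the highest and UIR2 the lowest. *Acta2* rose by 1.39 on the log2 scale (SE 0.28, adjusted p = 0.01001), from a mean of 577 ± 151 CPM to 1557 ± 739 CPM (SD, n = 3 libraries each). *Myl9*, the light chain whose phosphorylation triggers contraction, was at 159.9, 246 and 193 CPM in UIR and at 697, 822 and 548 CPM in UUO. The groups of *Myl9* did not overlap, and it rose by 1.74 (SE 0.20, adjusted p = 9.32e-05). *Myh11*, the myosin heavy chain, was at 9.25, 17.1 and 6.58 CPM in UIR and at 64.2, 163 and 54.7 CPM in UUO. It rose by 2.95 (SE 0.43, adjusted p = 0.000584), resting on 35 UMIs in UIR and 333 in UUO, a ratio of 7.68 with a counting interval of 5.41 to 11.2. *Myh11* reached the minimum of the filter on low counts in 1 UIR pool and 3 UUO pools, so its test is given as a description. *Tpm2* was at 391, 464 and 314 CPM in UIR and at 623, 907 and 562 CPM in UUO, and rose by 0.80 (SE 0.21, adjusted p = 0.0465).

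Thus 4 of the 10 genes rose in Fibro 1-like stroma and 0 fell, where 1.93% of 9070 genes were called higher and 3.15% were called in all. *Myh11*, *Cnn1*, *Lmod1* and *Actg2* passed the filter on low counts, which asked for 9.37 CPM in 3 pools, only with UUO pools counted, so the number called is a description. The remaining 6 did not pass the test. *Cnn1*, *Lmod1* and *Actg2*, all low in this class, had log2 fold changes of 2.27 (adjusted p = 0.154), 1.56 (adjusted p = 0.182) and 1.46 (adjusted p = 0.175). *Tpm1* was at 1151, 1457 and 1225 CPM in UIR and at 1983, 2437 and 1453 CPM in UUO, with a log2 fold change of 0.57 (SE 0.20, adjusted p = 0.181). Its groups overlapped only through UUO2 and UIR1. *Tagln* was at 2114, 2112 and 969.7 CPM in UIR and at 2052, 2673 and 1444 CPM in UUO, so its groups overlapped widely (log2 fold change 0.20, adjusted p = 0.860). *Des* had the opposite sign, at 318, 242 and 238 CPM in UIR and 163, 213 and 179.6 CPM in UUO (log2 fold change -0.56, SE 0.18, adjusted p = 0.134).

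The calls of *Myl9* and *Myh11* held without any 1 library, which for *Myh11* is a description, given how it passed the filter on low counts. *Acta2* was not called without UIR2 (log2 fold change 1.17, adjusted p = 0.0799), by DESeq2 (1.38, adjusted p = 0.0742) or at a finer clustering (1.27, adjusted p = 0.0513). It was called (1.35, adjusted p = 0.0135), and *Tpm2* was not (0.76, adjusted p = 0.0675), without sub-cluster 0, whose median of 773 UMIs per cell was the lowest in this class. *Tpm2* was not called without UIR1 (adjusted p = 0.0742), UIR2 (adjusted p = 0.252), the unnumbered UIR library (adjusted p = 0.113) or UUO1 (adjusted p = 0.230). Markers of Fibro 2-like stroma moved with these genes, since the summed level of its 8 markers was 97.1 to 141 CPM in UIR and 193 to 309 CPM in UUO, with up to 3 and 2 of the 8 at 0. The 7 markers of Fibro 3-like stroma ran the other way, at 2688 to 2978 CPM in UIR and 1310 to 1900.4 CPM in UUO. Their part in the result was not tested. RNA free in the suspension could account for at most 1.85% of the *Acta2* and 2.1% of the *Myl9* in any of the 6 pools, but for 9.40% to 31.4% of the *Myh11* in UIR and 0.857% to 7.18% in UUO. With it subtracted *Myh11* had a log2 fold change of 3.14, again a description, and *Tpm2* was not called (0.77, adjusted p = 0.0652).

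The 9 control cells of Fibro 1-like stroma held 11 UMIs of *Acta2*, 17 of *Tagln* and 0 of *Myh11*. Summed, this is 271 CPM of *Acta2* (95% Poisson interval 135 to 485) and 419 CPM of *Tagln* (244 to 671), and 0 UMIs of *Myh11* allow a level of up to 73.9 CPM. All 11 UMIs of *Acta2* came from the 4 cells of the library Ctrl, so no comparison with injury was made.

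Single cells followed the same order as the pools. With each cell thinned to 1000 UMIs, at least 1 UMI of *Acta2* was found in 20.3% of Fibro 1-like cells in UIR (63 of 310, 71 shallower cells left out) and in 39.8% in UUO (141 of 354, 156 left out). Without thinning the shares were 37.8% and 53.5%, at median depths of 7476 and 4840 UMIs per cell. The thinned share in T and NK cells, which should lack *Acta2*, was 0.768% in UIR and 1.15% in UUO, at median depths of 3675 and 4546 UMIs before thinning. Cells with UMIs of 5 or more of the 10 genes were 4.84% of thinned Fibro 1-like cells in UIR and 20.1% in UUO, beside 89.1% and 89.4% of Fibro 2-like cells. The injuries filled the sub-clusters unequally. Sub-cluster 5 held 112 UIR and 41 UUO cells and had 975 CPM of *Acta2* in UIR and 2381 CPM in UUO, sub-cluster 1 held 162 and 108 cells and had 317 and 692 CPM, and the shallow sub-cluster 0 held 107 and 197 cells and had 240.5 and 1692 CPM. Sub-cluster 8, whose 94 cells were all from UUO, had 2240 CPM of *Acta2* and 1109 CPM of *Myl9* and held 52.8% of the *Acta2* UMIs of Fibro 1-like stroma in UUO. The 70 UUO cells of sub-cluster 9, which had 0 UIR cells, were at 277 CPM of *Acta2*.

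**Figure D2:**
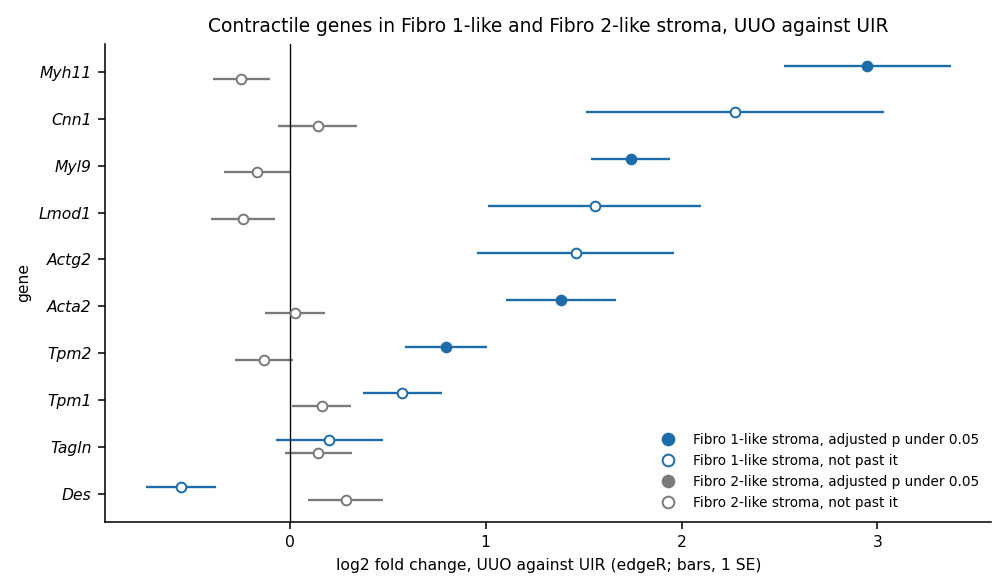
Log2 fold change of each gene between UUO and UIR in Fibro 1-like (blue) and Fibro 2-like (grey) stroma, from edgeR, with bars of 1 SE. Filled points passed an adjusted p of 0.05; the 4 filled points are *Myh11*, *Myl9*, *Acta2* and *Tpm2* of Fibro 1-like stroma, and no grey point is filled. *Actg2* was not tested in Fibro 2-like stroma.

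Whether the 2 stromal classes differed in their response was tested directly, as the difference between the log2 fold changes (UUO against UIR) of Fibro 1-like and Fibro 2-like pools of the same 6 libraries. This comparison was chosen after seeing the data. The difference was 1.87 for *Myl9* (SE 0.23, adjusted p = 0.000181), 3.08 for *Myh11* (SE 0.42, adjusted p = 0.00047), 1.28 for *Acta2* (SE 0.26, adjusted p = 0.0121) and 0.90 for *Tpm2* (SE 0.21, adjusted p = 0.0297). Each of these 4 genes was thus raised more in Fibro 1-like than in Fibro 2-like stroma, where 0.56% of 9466 genes were called in this direction and 1.63% in either. *Tagln* (0.09, adjusted p = 0.964), *Tpm1* (0.38, adjusted p = 0.524), *Cnn1* (1.94, adjusted p = 0.314), *Lmod1* (1.66, adjusted p = 0.104), *Actg2* (-0.23, adjusted p = 0.976) and *Des* (-0.83, adjusted p = 0.0897) did not pass. *Myl9* and *Myh11* passed without any 1 library. *Acta2* did not pass without UIR2 (1.04, adjusted p = 0.141) or the unnumbered UIR library (1.27, adjusted p = 0.0519), nor did *Tpm2* without either of these (adjusted p = 0.216 and 0.151) or without UUO1 (adjusted p = 0.0978). Without UUO2 or without the unnumbered UUO library *Lmod1* passed as well, and without UUO1 *Des* passed in the opposite direction (-1.11, adjusted p = 0.00928).

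Other genes of the contractile pathway were taken from 5 lists: thin filament and actin paralogs, thick filament and contraction regulators, adhesion plaque and intermediate filament, the serum response factor axis, and myofibroblast matrix. Over all genes, 1.93% were called higher and 3.15% in all in Fibro 1-like stroma (UUO against UIR), and 0.885% were called in Fibro 2-like stroma. Except where stated below, the pools through which listed genes passed the filter on low counts were not examined in any class. Their numbers called are therefore a description. In Fibro 1-like stroma 0 of 10 thin filament genes and 0 of 18 thick filament genes rose in UUO against UIR, and *Pln*, the phospholamban that restrains the calcium pump, fell by 4.28. Of 16 adhesion genes 2 rose, *Fhl1* by 0.88 and the filament protein *Nexn* by 0.77, and of 7 genes of the serum response factor axis *Klf4*, a repressor of smooth muscle genes, fell by 1.21. Matrix genes moved in both directions, with 5 of 17 higher and 3 lower. *Postn*, which encodes periostin, rose by 2.75, *Fap* by 1.62 and the collagen cross-linker *Lox* by 1.43, while *Timp1* fell by 1.84 and *Ltbp2* by 1.45 (all log2). In Fibro 2-like stroma 4 of 11 matrix genes rose, namely *Fn1* by 2.46, *Timp1* by 1.64, *Col6a3* by 1.27 and *Col3a1* by 1.26. There 1 of 11 thin filament genes also rose, the non-muscle tropomyosin *Tpm4* by 1.14, and 0 of the 19 thick filament, 19 adhesion and 6 serum response factor genes were called.

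Fibro 3-like stroma expressed *Des*, *Myl9*, *Tpm1* and *Tpm2* in every group, with *Tpm1* at 325 to 753 CPM and *Tpm2* at 297 to 652 CPM over its 7 pools, while *Tagln*, *Lmod1*, *Myh11*, *Cnn1* and *Actg2* were at 36.2 CPM or less. *Des* was at 1127, 975 and 1067 CPM in the control pools N1, N2 and AN1, at 1048 CPM in the 1 UIR pool and at 1152, 869 and 1144 CPM in UUO. The mean was 1057 ± 76.7 CPM in control and 1055 ± 161 CPM in UUO (SD, n = 3). *Myl9* had means of 1529 ± 98.97 and 1533 ± 244 CPM. Neither passed the test, with a log2 fold change of -0.10 for each (SE 0.19 and 0.18, adjusted p = 0.855 and 0.852). *Cnn1* had 0 UMIs in all pools, and *Myh11* and *Actg2* had 0 in control and UIR pools and 3 and 1 in UUO.

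*Acta2* was at 0, 0 and 71.7 CPM in the 3 control pools of Fibro 3-like stroma, at 44.3 CPM in the UIR pool and at 48.6, 179 and 201 CPM in UUO. The ranges overlapped through AN1 and the unnumbered UUO library. *Acta2* rose by 2.53 (SE 0.57, adjusted p = 0.00575) and was the only one of 5 genes called, where 2.19% of all genes were called and 0.911% were called higher. It rests on 9 control UMIs against 100, a ratio of 6.31 (counting interval 3.19 to 14.2). The groups sat in different sub-clusters, control mostly in sub-cluster 6 (102 control and 21 UUO cells) and UUO mostly in sub-cluster 4 (6 and 133 cells). In sub-cluster 4 *Acta2* was at 109 CPM in the 6 control cells and 99.4 CPM in UUO, and in sub-cluster 6 at 16.7 and 339 CPM. The call was lost without N2 (1.75, adjusted p = 0.130) and with free RNA subtracted (2.30, adjusted p = 0.333), and DESeq2 called 0 of 5. Markers of Fibro 2-like stroma moved with it, at 385 to 653 CPM in control and 688 to 5088 CPM in UUO, and free RNA would give 19.3% to 201% of the *Acta2* seen in UUO. With 1 UIR pool, no comparison with UIR was made. Of the pathway lists, 1 of 13 adhesion genes (*Fhl1*, -1.61), 1 of 10 thin filament genes (*Tpm4*, -0.77) and 2 of 8 matrix genes (*Ctgf*, -0.82, and *Tnc*) fell in UUO, and 0 of 13 thick filament genes were called.

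**Figure D3:**
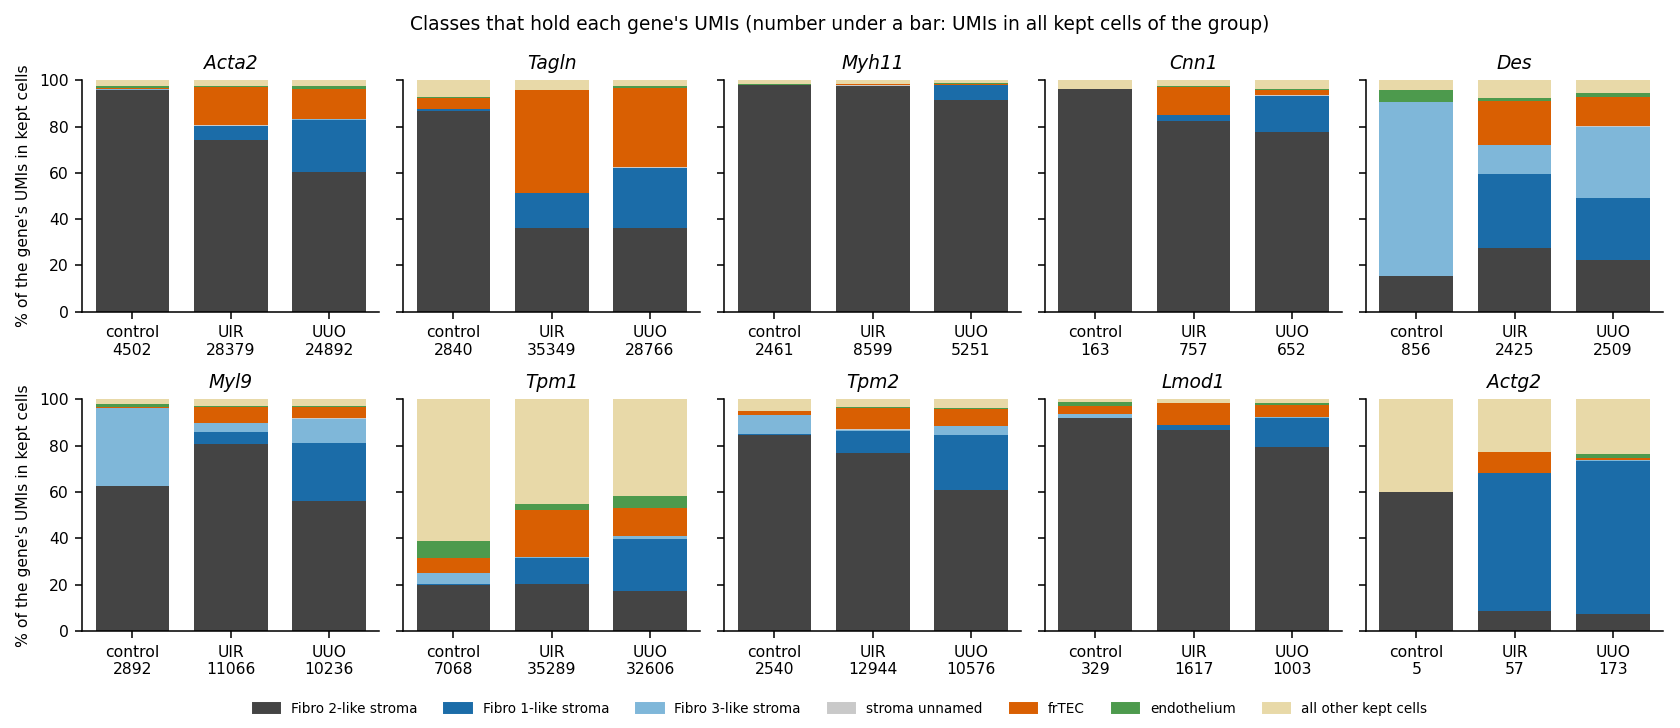
Share of each gene's UMIs held by each class, in percent of the UMIs in all kept cells of the group, with the number of UMIs printed under each bar. For *Acta2* the share of Fibro 2-like stroma was 95.7% in control, 74.2% in UIR and 60.3% in UUO, and for *Tagln* the share of frTECs was 4.86%, 44.6% and 34.4%. The frTEC shares include sub-cluster 2 of that class, which had more stromal than epithelial markers.

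Pooled over all stromal cells, *Des* fell in both injuries, and *Myh11* and *Myl9* fell and *Actg2* rose in UUO. The mix of classes moved with these genes. Fibro 1-like, Fibro 2-like and Fibro 3-like cells made up 5.202%, 30.6% and 64.2% of control stroma, 46.5%, 41.7% and 9.15% of UIR stroma and 59.5%, 17.7% and 21.1% of UUO stroma, and the part of this mix in the results below was not tested. *Des* was at 551, 924, 848, 959.9 and 550.0 CPM in the control libraries Ctrl, N1, N2, AN1 and AN2, at 445, 272 and 301 CPM in UIR and at 350.5, 312 and 389 CPM in UUO. No injured library reached the lowest control. *Des* fell by 1.08 in UIR (SE 0.21, adjusted p = 0.00113) and by 1.07 in UUO (SE 0.21, adjusted p = 0.000930), and was the 1 of 10 genes called in UIR, where 14.4% of all genes were called and 5.3% were called lower. *Myh11* was at 3343, 2385, 1145, 899 and 3262 CPM in control, in the same order, and at 919, 942 and 808 CPM in UUO, with overlap through AN1. In UUO *Myh11* fell by 1.27 (SE 0.34, adjusted p = 0.0117) and *Myl9* by 0.66 (SE 0.19, adjusted p = 0.0183), so that 3 of 10 genes fell and 1 rose, where 6.72% of all genes fell and 11.2% rose. The gene that rose was *Actg2*, with 3 UMIs in control stroma and 128 in UUO, a ratio of 7.71 (counting interval 2.58 to 37.9, adjusted p = 0.0430). It passed the filter on low counts only with injured pools counted, since 1 of 5 control pools reached its minimum of 6.91 CPM. The test of *Actg2* and its count as the 1 gene that rose are therefore a description. Between UUO and UIR edgeR called 0 of 10, 3 had an unadjusted p under 0.05 and DESeq2 called 0, against 1.92% of all genes. *Myl9* lost its call without UUO2, and *Actg2* without UUO1, N1, N2, AN1 or AN2. The direction of *Myh11* turned to 0.66 (adjusted p = 0.786) when 15% of cells were removed as doublets, a setting that left 35.8% of the control Fibro 2-like cells. Of the pathway lists, 14 of 17 matrix genes rose and 1 fell in UUO stroma, and 0 of 20 thick filament genes rose and 4 fell, *Pln* by 1.04 and *Ppp1r12a*, a subunit of myosin phosphatase, by 0.76.

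frTECs are known as tubular cells held in an incompletely repaired state after injury. Contractile genes were found in the cells of this class in both injuries, mostly in 2 sub-clusters described below. The leading genes of sub-cluster 0 included *Tagln*, *Acta2* and *Eln* and none of its parietal epithelial markers. Sub-cluster 2 had more stromal than epithelial markers. Control cells sat mostly in thin limb-like or unnamed sub-clusters (69 of 95 in sub-clusters 1, 9 and 10), which held 145 of 828 UIR and 59 of 330 UUO cells. *Acta2* was at 109.5, 0 and 0 CPM in the control pools Ctrl, N2 and AN2, at 683, 285 and 556 CPM in the unnumbered, first and second UIR libraries and at 616, 526 and 1203 CPM in UUO. All injured libraries were above all controls. *Acta2* rose by 3.75 in UIR (SE 0.82, adjusted p = 0.0228) and by 4.31 in UUO (SE 0.83, adjusted p = 0.00766). *Tagln* was at 257, 331 and 6.90 CPM in control, at 2067, 941 and 1909.5 CPM in UIR and at 2425, 1482 and 3425 CPM in UUO. It rose by 3.08 in UIR (SE 0.72, adjusted p = 0.0295) and by 3.59 in UUO (SE 0.73, adjusted p = 0.0104). *Des* had 0 UMIs in all 3 control pools, which allows up to 3.95 CPM, and was at 45.1, 34.7 and 53.3 CPM in UIR and 63.2, 52.7 and 116 CPM in UUO. Against a floor of 3 control UMIs over the group, *Des* was at least 11.1-fold higher in UIR and at least 16.7-fold higher in UUO. It passed the filter on low counts through injured pools alone, so these bounds are given without a test. In UUO *Myl9* rose by 3.22 (SE 0.77, adjusted p = 0.0228) and *Tpm1* by 0.71 (SE 0.18, adjusted p = 0.0308). *Acta2*, *Tagln* and *Myl9* had 1, 2 and 2 of 3 control pools at the minimum of the filter. They passed it only with the injured pools counted, where they were high, so their tests are given as a description.

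The filter asked for 7.10 CPM in 3 pools, and 8 of the 10 genes passed. *Tpm1* passed on the control pools alone, the other 7 passed only with injured pools counted, and *Des* and *Cnn1* had 0 control pools at the minimum. The number of genes called is therefore no support for a common direction. As a description, *Acta2* and *Tagln* were called in UIR besides *Des*, where 5.64% of all genes were called and 2.79% were called higher, and these with *Myl9* and *Tpm1* in UUO, where 10.1% were called and 5.02% were called higher. *Tpm2* (2.07, adjusted p = 0.0730) and *Lmod1* (-0.28, adjusted p = 0.895) did not pass in UUO. *Myh11* and *Actg2* were too low to be tested, with up to 11.6 and 2.69 CPM in any injured pool. Between UUO and UIR edgeR called 0 of 8, 1 had an unadjusted p under 0.05 and DESeq2 called 0, with 0 of 10728 genes called by edgeR. The UIR calls depended on single libraries, since without UIR2 neither *Acta2* (3.697, adjusted p = 0.0644) nor *Tagln* (2.97, adjusted p = 0.083) was called. *Acta2* in UIR was also lost without AN2 (adjusted p = 0.0987) and by DESeq2 (adjusted p = 0.121), and *Tagln* without the unnumbered UIR library (adjusted p = 0.0546) or Ctrl (adjusted p = 0.109). In UUO *Myl9* was lost without Ctrl, N2 or AN2, and *Tpm1* without any of these, UIR2 or UUO2.

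Stromal markers moved with these genes in frTECs. The summed level of 12 mural and stromal markers was 27.6 to 56.7 CPM in control, with up to 9 of the 12 at 0 (*Pdgfrb*, *Notch3*, *Col1a1* and *Dcn* belong to the list), and 278 to 550 CPM in UIR and 355 to 733 CPM in UUO, with up to 3 and 2 at 0. The 7 pan-epithelial markers were at 2393 to 3690.0 CPM in control, 1713 to 2330 CPM in UIR and 943 to 1949 CPM in UUO. Without the cells that held a UMI of any of the 12 markers, which left 86.3%, 53.3% and 38.2% of control, UIR and UUO frTECs, edgeR called 0 of the 3 genes that passed the filter on low counts in both injuries, and *Des* and *Myl9* were not tested. This removal left 23.0% of UIR and 11.2% of UUO cells of sub-cluster 0, which held most of the *Acta2*, and also took 38.2% of T and NK cells. There *Acta2* had log2 fold changes of 0.67 in UIR (adjusted p = 0.818) and 0.65 in UUO (adjusted p = 0.827), and *Tagln* of 0.06 and 0.36. Free RNA would give at most 6.54% of the *Acta2* seen in UIR and 5.57% in UUO.

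The *Acta2* of frTECs sat mostly in 2 of 11 sub-clusters. Sub-cluster 0 had the 5 markers of parietal epithelium (*Cldn1*, *Akap12*, *Wt1*, *Ncam1* and *Vcam1*), but none of them was among its 10 leading genes, which were *Tagln*, *Acta2*, *Eln*, *Vim*, *Tnc*, *Bgn*, *Col6a1*, *Cdh11*, *Lsp1* and *Tm4sf1*, and it is therefore called by its number. It made up 22.6% of UIR and 32.4% of UUO frTECs and held 62.7% and 78.7% of the *Acta2* UMIs. Sub-cluster 2, of 70 UIR, 45 UUO and 0 control cells, made up 8.45% and 13.6% of frTECs and held 34.2% and 21.03%. It was left unnamed, with 2914 to 3897 CPM of the mural and stromal markers and 223 to 274 CPM of the pan-epithelial ones. In the pools of sub-cluster 0 the same lists were at 351 to 491 CPM and 712 to 829 CPM. *Acta2* was at 1089 CPM in UIR and 1260 CPM in UUO in sub-cluster 0, against 1947 and 1281 CPM in sub-cluster 2. The thin limb-like and injured proximal-like frTECs, 221 and 413 cells, had 2.48 to 9.74 and 1.86 to 6.11 CPM of *Acta2*, the range of T and NK cells (0 to 11.4 CPM). The unnamed sub-cluster 6, of 56 UIR and 31 UUO cells, had 154 CPM of *Acta2* in UIR, where 112 of its 113 UMIs came from the library UIR1, and 2.09 CPM in UUO. Without sub-cluster 2, *Acta2* (3.38, adjusted p = 0.0625) and *Tagln* (2.64, adjusted p = 0.0790) were not called in UIR. In UUO all calls held without it, with log2 fold changes of 4.24 for *Acta2* (adjusted p = 0.0171), 3.45 for *Tagln* (adjusted p = 0.0208), 3.21 for *Myl9* (adjusted p = 0.0368) and 0.74 for *Tpm1* (adjusted p = 0.0381). For *Acta2*, *Tagln* and *Myl9* this too is a description, given how they passed the filter on low counts.

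**Figure D4:**
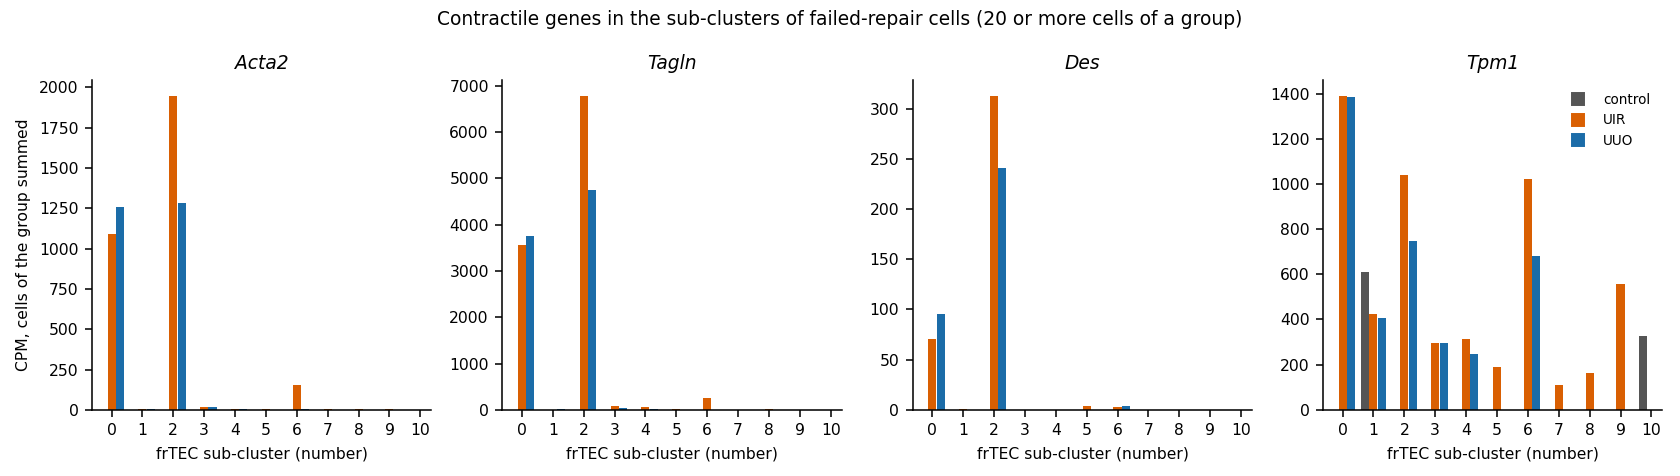
CPM of *Acta2*, *Tagln*, *Des* and *Tpm1* in the frTEC sub-clusters, each bar being all cells of a group summed, drawn where the group had 20 or more cells in the sub-cluster. *Acta2*, *Tagln* and *Des* were highest in sub-clusters 0 and 2, *Acta2* and *Tagln* were also seen in UIR cells of sub-cluster 6 (154 and 263 CPM), and *Tpm1* was present in every sub-cluster drawn; the 15 control cells of sub-cluster 0 are not drawn.

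In sub-cluster 0 of the frTECs the 2 UIR pools (UIR1 and UIR2) had 785 and 976 CPM of *Acta2* and the unnumbered, first and second UUO pools 1529, 901 and 1661 CPM, with overlap through UUO1. Of 8 genes edgeR called 0 between UUO and UIR, 4 had an unadjusted p under 0.05 and DESeq2 called 0, where 0.135% of all genes were called. *Tpm1* was between 1327 and 1403 CPM in all 5 pools. The 15 control cells of this sub-cluster held 28 of the 29 *Acta2* UMIs of control frTECs, or 179 CPM. Thinned to 1000 UMIs, 38.0% of UIR and 42.5% of UUO cells of sub-cluster 0 had an *Acta2* UMI, beside 13.7% and 20.2% of all frTECs and 2.11% of control frTECs (median depths before thinning 12119 and 16398 UMIs in sub-cluster 0 and 8840.5, 11014.5 and 7770.0 in all frTECs).

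Other cytoskeletal genes were also called higher in the frTEC pools, where 2.79% of all genes were called higher in UIR and 5.02% in UUO. These pools include sub-cluster 2, had more of the stromal markers in injury, and drew control and injured cells from different sub-clusters. The part of this in the values below was not tested. Of 17 adhesion and intermediate filament genes 8 rose in UIR and 9 in UUO, among them *Vim*, the mesenchymal intermediate filament vimentin, by 3.11 and 3.71, the integrin *Itga5* by 2.57 and 3.52 and *Pdlim7* by 2.27 and 2.64. Of 11 thin filament genes 5 rose in UIR and 6 in UUO, with *Flna*, filamin A, by 1.81 and 2.36, and *Tagln2*, a relative of transgelin found outside muscle, by 1.78 and 1.79, while *Smtn* fell by 0.84 and 0.73. Of 13 thick filament genes *Mylk*, the kinase that phosphorylates the myosin light chain, rose by 1.30 and 1.76, and in UUO also *Cnn2* by 1.12. Of 13 matrix genes 7 rose in UIR and 10 in UUO, *Fn1* by 3.43 and 4.39. Whether these listed genes passed the filter on low counts only with injured pools counted was not examined. The numbers called are therefore a description and no support for a common direction.

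Endothelium held few UMIs of the smooth muscle genes. By an estimate that can be too high, free RNA alone would give about as much *Tagln* as was seen, and part of the *Acta2*. *Acta2* was at 10.2, 12.7, 11.2, 0 and 5.88 CPM in the 5 control libraries, at 17.2, 14.9 and 15.3 CPM in UIR and at 36.7, 23.0 and 23.4 CPM in UUO. *Tagln* was at 3.15, 1.41, 1.60, 0 and 1.47 CPM in control, at 5.50, 10.7 and 11.9 CPM in UIR and at 20.1, 8.75 and 17.9 CPM in UUO. For both genes all injured libraries were above all control libraries. *Tagln* had 7 UMIs in control, 71 in UIR and 166 in UUO, ratios of 5.21 (counting interval 2.40 to 13.4) and 8.47 (4.02 to 21.4). These are given without a test, since 0 of 5 control pools reached the 4.24 CPM that the filter on low counts asked of 3 pools, and *Tagln* passed it through injured pools alone. *Acta2* passed on the control pools and rose in UUO by 1.66 (SE 0.34, adjusted p = 0.00231), where 12.3% of all genes were called and 5.69% were called higher. In UIR *Acta2* had a log2 fold change of 0.91 (adjusted p = 0.303), where 2.18% of all were called and 1.2% were called higher. Without Ctrl, *Acta2* was still called in UUO (1.77, adjusted p = 0.00704). Between UUO and UIR edgeR and DESeq2 called 0 of 6, with 1 unadjusted p under 0.05 and 2.56% of all genes called. *Tpm1*, which endothelium itself makes, had means of 133 ± 10.7 CPM in control (SD, n = 5), 122 ± 13.4 CPM in UIR and 149 ± 8.89 CPM in UUO (SD, n = 3) and was not called.

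The composition of empty droplets and the share of free RNA per cell give an estimate of the level that a gene would reach without being expressed. This estimate can be too high. For *Myh11* it was 23.9, 7.86 and 13.9 UMIs in the unnumbered, first and second UUO libraries, where 12, 2 and 3 were seen. For *Acta2* the estimate was 24.8% to 89.8% of the level seen in those control libraries with *Acta2* UMIs, 66.2% to 77.0% in UIR and 46.1% to 95.2% in UUO. For *Tagln* it was 93.6% to 188%, 87.5% to 200% and 77.0% to 129%, whereas for *Tpm1* it was 2.92% to 18.5% over all libraries. In Ctrl *Des* had 43 UMIs and *Myl9* 39, where free RNA would give 0.438 and 3.57. With these counts subtracted, *Acta2* in UUO had a log2 fold change of 0.64 (SE 0.75, adjusted p = 0.697), *Tagln* was too low to be tested, and 0 of the 3 genes tested were called. Without endothelial cells that held a UMI of the 12 mural and stromal markers, *Acta2* was still called in UUO (1.51, adjusted p = 0.0112). The markers were at 8.001 to 178 CPM in control, the highest in Ctrl, at 30.6 to 43.3 CPM in UIR and at 19.8 to 64.5 CPM in UUO, while the endothelial markers were at 8685 to 11362 CPM throughout.

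**Figure D5:**
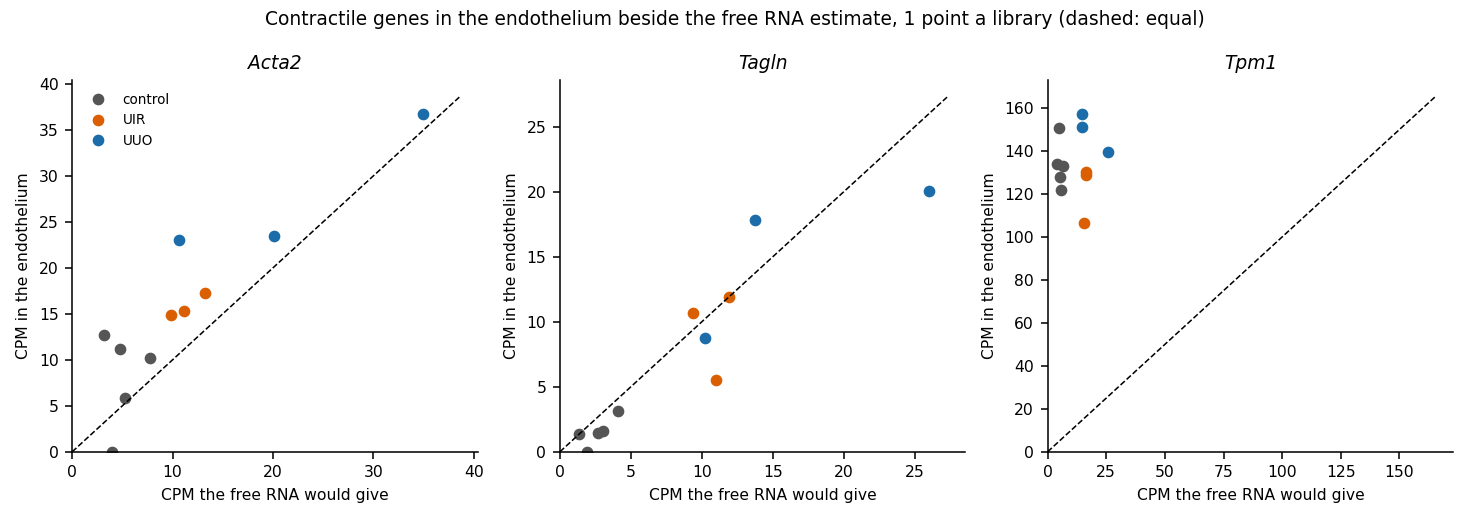
CPM of *Acta2*, *Tagln* and *Tpm1* in the endothelial pool of each of the 11 libraries against the CPM that free RNA alone would give by the estimate, with a dashed line where they are equal. *Tagln* lies on both sides of the line. *Acta2* lies above it in every library but AN1, which had 0 UMIs, and reaches 12.7 CPM in N1 where free RNA would give 3.14 CPM. *Tpm1*, of which free RNA would give at most 18.5%, lies far above it.

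By vascular bed only 2 genes each passed the filter on low counts, *Tagln* and *Tpm1* in the endothelium that was neither arterial-like nor glomerular-like, and *Acta2* and *Tpm1* in the other two beds, so the beds were not compared with each other. The former, called the remaining endothelium, had 2138 cells, of which 1171 were in the capillary-like sub-clusters 1, 3 and 9, 76 in sub-cluster 10 and 891 in sub-clusters 0 and 11, left unnamed for low depth and genes of other cell types. Sub-cluster 10 had the capillary markers, but its leading genes, *Ccl21a*, *Aqp1*, *Aplnr* and *Vwf* first, included none of them, and it is called by its number. In the remaining endothelium *Tagln* was at 4.196 CPM in Ctrl and 0 in the other 4 control libraries, at 15.7, 18.9 and 10.8 CPM in UIR and at 47.7, 16.7 and 46.0 CPM in UUO. It had 2 UMIs in control and 128 in UUO, a ratio of 18.2 (counting interval 4.94 to 152), given without a test since 0 of 5 control pools reached the 14.3 CPM asked by the filter on low counts. *Tpm1*, which passed on the control pools, was not called, where 10.9% of all genes were called and 5.28% were called higher. Of the 128 *Tagln* UMIs 86 came from sub-cluster 10, of 73 UUO, 3 UIR and 0 control cells, where *Tagln* was at 111 CPM in UUO. Control cells sat mostly in sub-cluster 3 (215 of 283), which held 84 of 986 UUO cells and had 1.11 CPM of *Tagln* in control and 9.14 CPM in UUO. In sub-clusters 1, 3 and 9 together *Tagln* was at 2.21, 0, 0, 0 and 0 CPM in control, at 11.6, 10.2 and 9.62 CPM in UIR and at 14.98, 11.1 and 5.42 CPM in UUO, so that both injuries were above control and overlapped each other. Over all of the remaining endothelium free RNA would give 39.0% to 70.4% of the UUO level. In arterial-like endothelium *Acta2* was at 7.11, 7.88, 6.93, 0 and 0 CPM in control, at 9.10, 12.2 and 15.3 CPM in UIR and at 25.7, 12.8 and 50.9 CPM in UUO, a ratio of 6.81 between UUO and control (counting interval 2.97 to 19.2). It is given without a test as well, with 0 of 5 control pools at the minimum of 13.5 CPM, and *Tpm1* was not called, where 5.07% of all genes were called and 2.59% were called higher. Of its 68 UMIs in UUO 47 came from the 62 cells of sub-cluster 8. *Acta2* did not pass the filter on low counts, and was not tested, without UUO2 or without the unnumbered UUO library, and free RNA would give 49.2% to 199% of its UUO level. In glomerular-like endothelium *Acta2* was at 24.2, 22.1, 14.0, 0 and 20.3 CPM in control, at 30.2, 25.7 and 11.98 CPM in UIR and at 41.1, 35.9 and 21.6 CPM in UUO, and the groups overlapped. Control cells were mostly in sub-cluster 6 (212 of 236) and UUO cells in sub-clusters 2 and 4 (699 of 726). Neither of its 2 genes was called in UUO against control by edgeR or DESeq2, where 1 had an unadjusted p under 0.05 and 9.08% of all genes were called.

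Against UIR, or between UIR and control, 0 of the 2 genes tested in each vascular bed were called by edgeR or DESeq2. The numbers with an unadjusted p under 0.05 in UIR against control were 1 in the remaining, 0 in arterial-like and 0 in glomerular-like endothelium, where 3.1%, 1.82% and 2.11% of all genes were called. In UUO against UIR they were 2, 1 and 0, where 2.67%, 0.519% and 1.52% were called. Of the pathway lists in all endothelium, 8 of 12 matrix genes were called higher in UUO, where 5.69% of all genes were. Among them were *Timp1* by 2.75, *Col3a1* by 2.59 and *Ctgf* by 1.66. With 8 and 3 UMIs over all control libraries, *Timp1* and *Col3a1* passed the filter on low counts only with injured pools counted. Their rises and the number called are therefore a description. Free RNA would give 9.64% to 19.9% of the *Timp1* and 1.67% to 6.81% of the *Ctgf* seen in UUO, but 233% to 459% of the *Col3a1*, more than all of its 57 UMIs. Of 17 adhesion genes 2 rose, *Synm* by 1.29 and *Csrp2* by 0.82, and 2 fell, among them *Tgfb1i1* by 0.43, and of 7 genes of the serum response factor axis *Srf* rose by 0.75 and *Klf4* fell by 1.11. Of 11 thin filament genes 3 rose, *Actn1* by 1.16, *Flna* by 0.62 and *Tpm3* by 0.37, and of 13 thick filament genes 0 did. In UIR *Timp1* alone was called higher, by 2.09, where 1.2% of all genes were, and this too is a description.

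The classes that held the UMIs of each gene differed between the groups, as a description over all kept cells. Fibro 1-like stroma held 0.244% of the *Acta2* UMIs in control, 6.14% in UIR and 22.6% in UUO, and frTECs 0.644%, 16.8% and 12.7%. For *Myh11* Fibro 2-like stroma held 98.0%, 97.3% and 91.4%. Of the *Des* UMIs, Fibro 3-like stroma held 642 of 856 in control, 12.5% in UIR and 30.8% in UUO, and Fibro 1-like stroma 0.117%, 31.8% and 26.7%. *Tpm1* was the least tied to the stroma, and cells outside the stroma, frTECs and endothelium held 61.0%, 45.3% and 41.7% of its UMIs. *Actg2* had 5, 57 and 173 UMIs in all, of which Fibro 1-like stroma held 0%, 59.6% and 65.9%. These shares depend on how many cells of each class were captured.

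Over the 61 pools of the stromal, frTEC and endothelial classes, the gene whose log level was most like that of *Acta2* among 7168 genes was *Tagln* (Pearson r 0.87). Next came *Dstn* (0.86), the actin-severing destrin, *Tpm1* (0.84), *Ptgis* (0.83), *Gpc6* (0.83), *Cnn1* (0.82), *Dclk1* (0.82), *Myh11* (0.82), *Tuba1c* (0.82) and *Map3k7cl* (0.82), the last a naming marker of Fibro 2-like stroma. Of the other contractile genes *Tpm2* ranked 16, *Lmod1* 35, *Myl9* 56 and *Des* 117. The pools share libraries and span classes with very different levels, so these correlations describe the classes.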

How the data were processed

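The deposited files hold UMI counts per gene and barcode, empty droplets included, from dissociated kidneys on the 10x 3′ platform; per the submitters' processing notes the authors made these raw counts with Cell Ranger 3.1.0 on mm10, and their later removal of ambient RNA and doublets is not in the counts. The genes and lists were chosen with earlier results of these data known, and parts of the naming rules were set after cluster tables had been seen. Barcodes were called as cells from the 99th percentile of the top 3000 barcodes divided by 10, plus smaller barcodes of 500 UMIs or more that differed from the empty droplets of ranks 45000 to 90000 (10000 simulations, adjusted p 0.01). Cells with over 30% mitochondrial or 5% hemoglobin UMIs or under 200 genes, and the 7.5% of each library with the highest doublet scores, were removed. Cells were clustered (2000 variable genes, 40 components or 30 within a class, 20 neighbours, Leiden resolution 1; 228 listed genes left out) in Python 3.11.15 with scikit-learn 1.9.0 and leidenalg 0.10.2, and a name needed 3 markers at 10 CPM. Counts of 20 or more cells per library and class were summed and tested with edgeR 4.0.16 (quasi-likelihood, TMM, filterByExpr, all 3 groups in 1 model where they had pools) in R 4.3.3, with p-values adjusted by Benjamini-Hochberg across the genes of the fit and an adjusted p of 0.05 as threshold; the test was checked on simulated data. Levels are CPM of the summed counts, from 3′ UMIs that do not grow with gene length. Single values used Poisson, exact binomial or, for ratios, conditional binomial intervals at 95%, which cover counting error only; a count of 0 was taken to allow 3 counts. Alternatives were DESeq2 1.42.0, other normalization, filters, clustering, doublet and mitochondrial limits, subtracted free RNA, removal of cells with mural or stromal UMIs or of single sub-clusters, each library left out, and a replicate block. The numbers in UIR and UUO titles were checked as pairs: in frTECs the deviations of same-numbered libraries correlated at 0.53, 0.12 and 0.53 (the last the unnumbered pair), and in no other class did every pair exceed 0.1. The unnumbered pair correlated at 0.35 in endothelium, 0.20 in stroma, 0.24 in Fibro 1-like and 0.20 in Fibro 2-like stroma, and the main tests hold no term for pairs. With the block frTECs still had 0 of 8 genes called between UUO and UIR. Named genes were the 10 genes, the called genes of 5 pathway lists (the largest where many) and the 10 genes most like *Acta2* by log2(CPM + 1).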

Additional observations from a re-analysis of the deposited data

Results flagged for a closer look

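A single control library lay far from the other 4 in 5 of the 22 groups of 5 control pools tested, and each time the library was Ctrl. In 2 of these the other 4 libraries were at 0, so that any UMI in Ctrl would set it apart. Of the 20 groups with more than 1 library above 0, 3 remain, where the limit used is meant to give about 1 in 20 by chance. All 3 are genes of the same endothelial pool, and *Tpm2* rests on 7 UMIs in Ctrl and 1 in AN2. They are therefore not separate cases to set against that rate. *Des* in endothelium was at 33.8 CPM in Ctrl and at most 1.60 CPM in the others, *Myl9* at 30.7 CPM against at most 3.2003 CPM, and *Tpm2* at 5.51 CPM against at most 1.47 CPM. *Tagln* in endothelium that was neither arterial-like nor glomerular-like was at 4.196 CPM in Ctrl and 0 in the others, and *Actg2* in stroma at 10.6 CPM and 0. The mural and stromal markers were also highest in the endothelium of Ctrl, at 178 CPM, where the median control library had 12.7 CPM; their part in these values was not tested.

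The effect of UUO against UIR differed between Fibro 1-like and Fibro 2-like stroma, by a test of the difference itself, for *Myh11* (3.08), *Myl9* (1.87), *Acta2* (1.28) and *Tpm2* (0.90, all log2), each time larger in Fibro 1-like stroma. *Acta2* and *Tpm2* depended on single libraries, and without UIR2 neither passed the edgeR test (adjusted p = 0.141 and 0.216). The comparison was chosen after seeing the data.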

How the results depend on the processing

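Over the alternatives, 438 values were computed for the 24 calls on contractile genes: 381 kept direction and call, 56 lost the call and 1 reversed, *Myh11* in UUO against control stroma (0.66 at 15% doublets). The 24 include genes that passed the filter on low counts only with injured pools counted, some of them given above without a test. Settings in which a gene was too low to be tested add no value. These numbers are therefore a description and no measure of how firm the calls are. Numbers of genes called moved as follows, capillary meaning endothelium neither arterial-like nor glomerular-like. At resolution 2 Fibro 1-like stroma had 2. Without the low-count filter the numbers were 7 in Fibro 1-like stroma, 2 in UIR capillary, 1 in UUO against UIR capillary and 3 in UUO capillary, 1 in UUO against UIR endothelium, 5 in UIR frTECs, 1 and 3 in UIR and UUO glomerular-like endothelium, 2 in sub-cluster 0 of frTECs, 2 in UIR stroma and 3 in UUO against UIR stroma. DESeq2 called 1 in UIR Fibro 2-like small pools and 0 in Fibro 3-like stroma. With free RNA subtracted 0 were called in UUO Fibro 2-like small pools, Fibro 3-like stroma, UUO arterial-like and capillary endothelium, and UIR and UUO endothelium; endothelial *Tagln* and arterial-like *Acta2* were then too low to be tested. At 15% doublets 0 were called in UUO arterial-like and UIR endothelium, 1 in UIR capillary and 2 in UIR stroma. At a mitochondrial limit of 15% UIR endothelium had 0, UUO against UIR capillary 1, UIR stroma 3 and UUO stroma 2. Without cells with mural or stromal UMIs 0 were called in UUO arterial-like and UIR endothelium and in UIR and UUO frTECs (*Acta2* in arterial-like cells and *Des* and *Myl9* in frTECs were then too low to be tested), and without sub-cluster 2 UIR frTECs had 1. Without endothelial sub-cluster 10 UIR capillary had 1, and in capillary-like sub-clusters alone UUO had 0 of the 1 gene tested. These last 3 settings, that without the shallow sub-cluster, the small pools, that sub-cluster's comparison and the difference between classes were chosen after seeing the data. Leaving out 1 library gave 2 to 5 in Fibro 1-like stroma, 0 to 1 and 1 to 1 in UIR and UUO Fibro 2-like small pools, 0 to 0 in Fibro 2-like stroma, 0 to 2 in Fibro 3-like stroma, 0 to 1 in UUO arterial-like, UIR capillary, UUO against UIR capillary and UIR endothelium, 1 to 2 in UUO capillary, 2 to 3 in UUO endothelium, 1 to 4 and 3 to 6 in UIR and UUO frTECs, 1 to 1, 0 to 1 and 3 to 5 in UIR, UUO against UIR and UUO stroma, 2 to 5 for the difference between classes, and 0 in every other comparison. With the replicate block, UUO against UIR gave 9 of 10 in Fibro 1-like stroma and 1 in stroma, and changed no other count. The shares of all genes called under the block or without the low-count filter are not given here. These counts are therefore a description and cannot be read as particular to the contractile genes. No label says that libraries of the same number are pairs. Outside frTECs 2 to 4 of 6 libraries correlated best with their own number, and 5 of 6 in frTECs. Shares of cells with an *Acta2* UMI without thinning were 37.8% (UIR) and 53.5% (UUO) in Fibro 1-like stroma, 26.2% and 37.9% in frTECs and 5.40% and 8.05% in endothelium. Causes were not tested. Few control stromal cells and frTECs limit every comparison with control.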

Other observations

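Outside the stroma, frTECs and endothelium, *Tpm1* was the contractile gene with the most UMIs. In loop of Henle cells it was at 94.5 ± 10.2 CPM in control (SD, n = 5), 360 ± 11.4 CPM in UIR and 439 ± 64.6 CPM in UUO (SD, n = 3 each). Different clusters held this class in control and injury, and 4 control cells fell in a cluster of 1793 cells that was otherwise from injured kidneys, so no test was made. In podocytes *Tpm1* was at 485 ± 63.9, 857 ± 162 and 576 ± 82.1 CPM. *Tagln* in podocytes was at 317 ± 127 CPM in UIR and 100.3 ± 83.1 CPM in UUO, and in control it ranged from 3.43 to 522 CPM with a median of 10.9 CPM.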
